A study of Caenorhabditis elegans with 15 samples.

Results

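The 9 genes described here make or modify the small RNAs that silence and license transcripts in Caenorhabditis elegans. They are ego-1, rrf-1, drh-3, ekl-1, mut-16, mut-7, znfx-1, hrde-2 and henn-1. They were taken by name from the WBcel235 annotation, which gave 1 counted gene for each of the 9 among 46739 genes in the raw table, and all 9 passed the filter on low counts. RNA was counted per gene in 15 libraries of whole adult worms collected 24 h after the middle of the L4 stage. There were 3 libraries for each of 5 genotypes: wild type (wt), a gld2 knock-out, and double knock-outs of gld2 with ccf1 (gld2-ccf1), with ccr4 (gld2-ccr4) or with parn1 (gld2-parn1). All mutant groups share the gld2 knock-out, and the labels give no allele. The gene gld-2 encodes a cytoplasmic poly(A) polymerase, and ccf-1, ccr-4 and parn-1 encode deadenylases. Nothing in the labels says whether the 3 libraries of a genotype came from separate cultures, so the p-values measure the spread between these libraries, which may be technical.

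In worms a small RNA bound to an Argonaute protein recruits an RNA-dependent RNA polymerase to the target transcript. The polymerase copies the target into many secondary small RNAs, which load onto further Argonautes. In the germline this amplification takes place in condensates at the nuclear envelope, among them mutator foci and Z granules, and it allows silencing to pass to offspring. EGO-1 and RRF-1 are the polymerases of the set, and the Dicer-related helicase DRH-3 and the Tudor domain protein EKL-1 work with them. MUT-16 is the scaffold of mutator foci and MUT-7 an exonuclease of those foci. ZNFX-1 is a Z granule helicase needed for inheritance of silencing, HRDE-2 promotes the loading of small RNAs onto the nuclear Argonaute HRDE-1, and HENN-1 methylates the terminal ribose of piRNAs and of some other primary small RNAs.

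Library totals ran from 28.07 to 39.45 M counts, and the lowest count of any of the 9 genes in any library was 612 (hrde-2). Levels are CPM (counts scaled to a common library size by trimmed mean of M values, TMM), as mean ± SD over the 3 libraries of a genotype. Nuclear ribosomal RNA held more than 4% of the counts in 4 libraries, 14.3% in gld2-ccf1 replicate 2 and from 4.30% to 7.04% in wt replicate 1, gld2 replicate 3 and gld2-parn1 replicate 3. Counts of gld-2 were reduced in all 4 mutants. Those of ccr-4 were also lower than in wt in all 4 mutants, and lowest in gld2-ccr4 (means of 467 CPM in wt, 281 CPM in gld2 and 170 CPM in gld2-ccr4). The ccf-1 level was far higher in libraries with the gld2-ccf1 label, at 15544 to 47496 CPM, than in gld2 or wt (means 31.8 and 78.5 CPM). Against gld2 the log2 fold change of ccf-1 was 9.86 (SE 0.60, edgeR adjusted p = 6.37e-07). Its counts made up 1.65% to 4.97% of the total in these libraries. With the gld2-parn1 label, parn-1 was not called against gld2 (0.26 on the log2 scale, SE 0.095, edgeR adjusted p = 0.0887). Against wt it was called higher there (0.30, SE 0.095, edgeR adjusted p = 0.0120), with means of 60.6 CPM and 49.1 CPM in wt. Directions given for these double mutants rest on their labels.

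The makeup of the worms differed between genotypes. Of 12 listed germline markers, 10 were lower in gld2 than in wt and 0 higher, with summed levels of 6522 to 7347 CPM (wt) and 3643 to 3769 CPM (gld2). The double mutants had 3494 to 4760 CPM with ccf1, 3405 to 3587 CPM with ccr4 and 3779 to 4182 CPM with parn1. The most abundant germline marker, the yolk receptor gene rme-2, averaged 2313 ± 171 CPM in wt and 1243 ± 39.7 CPM in gld2. All 12 sperm markers were higher in gld2 than in wt, with sums from 182 to 222 CPM against 2.99 to 6.56 CPM. Their sperm sums were 123.7 to 157 CPM with ccf1, 163 to 196 CPM with ccr4 and 264 to 331 CPM with parn1. Sums of 10 early embryo markers were at most 14.5 CPM in any library, with med-1 at 0 in gld2, gld2-ccf1 and gld2-ccr4. In RNA from whole worms, fewer cells of a type and less RNA per cell cannot be told apart. The part of germline and sperm content in the values below was not tested. The defining markers of germline, sperm, muscle, intestine, neurons and cuticle were all detected in every genotype.

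Per kilobase of exon, the levels in wt were close together for most of the 9 genes. The highest were ego-1 at 94.1 ± 1.92 and mut-7 at 93.1 ± 6.73 CPM per kb. The helicase and Tudor genes drh-3 and ekl-1 stood at 78.0 ± 4.42 and 77.8 ± 3.51 CPM per kb. Next came mut-16, znfx-1 and rrf-1, at 63.2 ± 6.03, 63.2 ± 3.55 and 62.9 ± 2.23 CPM per kb. Levels per kb of henn-1 and hrde-2 were the lowest, at 53.9 ± 2.47 and 33.7 ± 1.59. In gld2 the order was another: ekl-1 led at 111 ± 2.36 CPM per kb, followed by drh-3 at 91.6 ± 0.477, and mut-16 and mut-7 had dropped to 31.1 ± 0.246 and 36.8 ± 0.919.

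**Figure D1:**
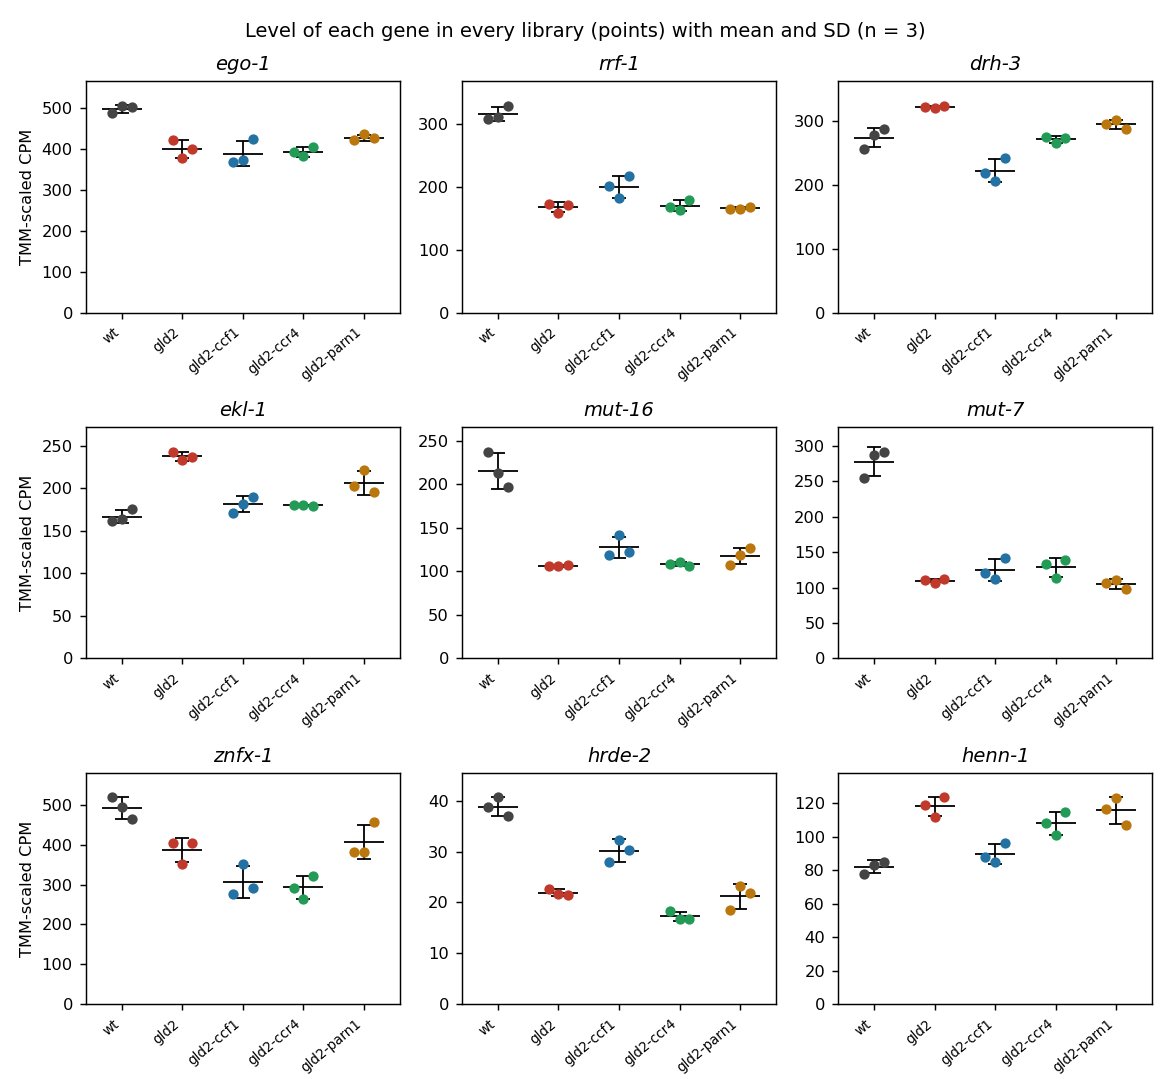
Levels of the 9 genes in each of the 15 libraries, in TMM-scaled CPM on a linear axis from 0, with 1 panel per gene and the 5 genotypes side by side. Points are libraries, and bars are the mean and SD of 3 libraries. For ego-1, rrf-1, mut-16, mut-7, znfx-1 and hrde-2 the wt points lie above all gld2 points, and for drh-3, ekl-1 and henn-1 below them.

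The single mutant split the 9 genes. Against wt, 6 of them were lower in gld2 (rrf-1, mut-16, mut-7, hrde-2, ego-1 and znfx-1) and drh-3, ekl-1 and henn-1 were higher. All 9 passed the test, where 49% of the 16888 tested genes did. Among all tested genes 20.2% were lower and 28.8% higher. The median log2 fold change over the 9 genes was -0.35, and over all tested genes 0.14. Libraries of gld2 and wt did not overlap for any of the 9 genes, as for 57% of all tested genes. The rises were modest beside the whole table: 64.8%, 64.4% and 54.3% of tested genes had a lower log2 fold change than henn-1, ekl-1 and drh-3. The falls of mut-7, mut-16, rrf-1 and hrde-2 stood further out, with 3.46%, 5.87%, 7.30% and 8.71% of tested genes below them.

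Scaling on the 37 of 40 muscle, intestine, neuron and collagen markers with a count in every library (somatic scaling) moved the median of all genes in this comparison up by 0.23 on the log2 scale. The markers themselves differed: 7 of 8 intestinal, 4 of 10 muscle, 2 of 8 tested collagen and 1 of 12 neuron markers were lower in gld2. Of the same markers 1 intestinal and 5 neuron markers were higher. This scaling kept the direction of all 9 genes and ended the calls of ego-1 and znfx-1 (-0.090 and -0.12, adjusted p = 0.678 and 0.551). The rise of drh-3 was no longer called once the 4 libraries rich in ribosomal RNA were left out (0.13, adjusted p = 0.138).

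The polymerase gene rrf-1 had 308, 312 and 329 CPM in wt replicates 1 to 3, and 173, 158 and 172 CPM in gld2. The wt libraries thus lay far above those of gld2, with no overlap. The log2 fold change was -0.92 (SE 0.067, adjusted p = 7.04e-10). In the double mutants rrf-1 had 201, 182 and 217 CPM with ccf1, 167, 164 and 179 CPM with ccr4, and 165, 165 and 168 CPM with parn1. With TMM scaling, though not under somatic scaling (log2 difference -0.26), the gld2-ccf1 libraries were all above those of gld2, while gld2-ccr4 overlapped gld2 and gld2-parn1 lay within its range. Of neighbouring genotypes in the order wt, gld2-ccf1, gld2-ccr4, gld2 and gld2-parn1, only the first 3 were told apart (adjusted p = 7.74e-08 and 0.0142).

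The other polymerase gene, ego-1, is the one needed for germline development. It is the neighbour of rrf-1 on chromosome I, with 563 bases between them on the same strand. Its level was 486, 505 and 502 CPM in wt and 422, 377 and 399 CPM in gld2. It was thus lower in each gld2 library than in any wt library (-0.32 on the log2 scale, SE 0.062, adjusted p = 2.47e-04). Levels in the double mutants ran from 368 to 423 CPM with ccf1, from 381 to 403 CPM with ccr4 and from 421 to 435 CPM with parn1. Only wt was told apart from its neighbour in the order of the 5 means (against gld2-parn1, adjusted p = 0.00567). The ratio of ego-1 to rrf-1, in counts per kb of exon within a library, was 1.497 ± 0.0432 in wt and 2.26 ± 0.0538 in gld2. It was 1.85 ± 0.104, 2.19 ± 0.0451 and 2.45 ± 0.0494 with ccf1, ccr4 and parn1. These genes are paralogs, and how reads matching more than 1 gene were counted is not given in the sources used here.

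The helicase gene drh-3 had 257, 278 and 287 CPM in wt and 321, 320 and 323 CPM in gld2. The gld2 libraries were nearly equal and all above wt (0.23 on the log2 scale, SE 0.063, adjusted p = 0.00434). With ccf1 the level was 218, 206 and 242 CPM, below every gld2 library and every wt library (log2 fold change against wt -0.30, SE 0.063, adjusted p = 4.75e-04). The direction of drh-3 against wt was therefore opposite in gld2 and gld2-ccf1. With ccr4 the level was 275, 265 and 274 CPM, lower than in gld2 and overlapping wt, from which it differed by -0.012 on the log2 scale (95% interval -0.15 to 0.13, adjusted p = 0.883), but it was called lower than wt under somatic scaling (-0.41, adjusted p = 0.0198). With parn1 it was 295, 301 and 287 CPM, which passed the test neither against gld2 nor against wt (adjusted p = 0.222 and 0.169).

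The Tudor gene ekl-1 had 161, 164 and 175 CPM in wt and 243, 233 and 237 CPM in gld2. All gld2 libraries lay above all wt libraries (0.51 on the log2 scale, SE 0.062, adjusted p = 9.29e-07). Levels in the double mutants were 171, 182 and 190 CPM with ccf1, 180 CPM in each of the 3 libraries with ccr4, and 202, 222 and 195 CPM with parn1. They all lay below gld2. Against wt only gld2-parn1 was still higher (0.31, SE 0.062, adjusted p = 3.44e-04, but 0.038 and no call under somatic scaling), while gld2-ccf1 and gld2-ccr4 gave 0.12 and 0.11 (95% intervals -0.019 to 0.26 and -0.029 to 0.25, adjusted p = 0.114 and 0.152).

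Ratios within a library do not depend on any scaling, and the pairs were chosen after their values were seen. The ratio of ekl-1 to rrf-1, in counts per kb, was 1.23 to 1.25 in wt libraries and 3.23 to 3.47 in those of gld2. It ran from 2.003 to 2.35 with ccf1, from 2.35 to 2.58 with ccr4 and from 2.73 to 3.15 with parn1. Every mutant library thus lay above every wt library, and every double mutant library below every gld2 library. That of drh-3 to ego-1 was 0.795 to 0.860 in wt, 1.15 to 1.28 in gld2 and 0.832 to 0.892 with ccf1. With ccr4 and parn1 it ran from 1.02 to 1.06 in both.

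**Figure D2:**
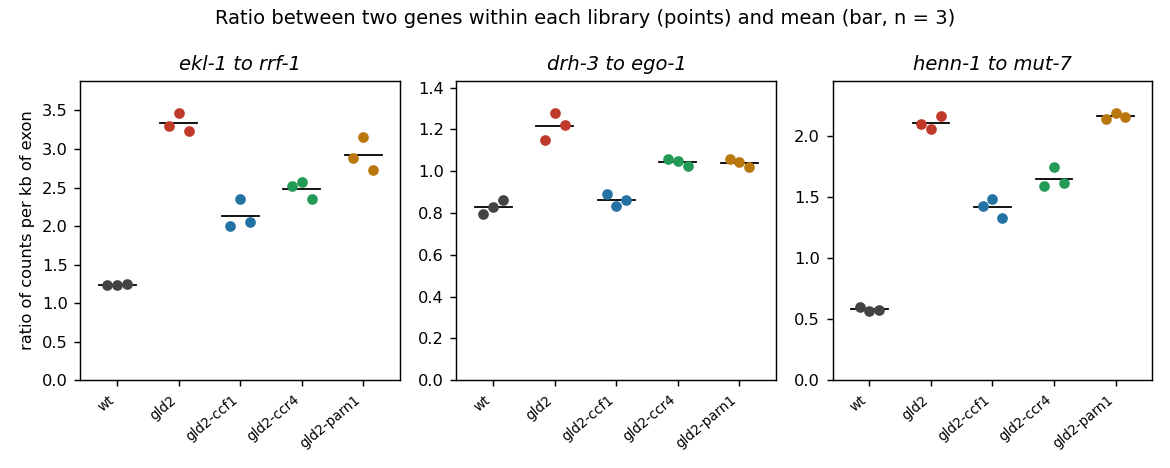
Ratios of ekl-1 to rrf-1, drh-3 to ego-1 and henn-1 to mut-7 in each library, in counts per kb of exon on a linear axis from 0. Points are libraries and bars the means of 3 libraries. All 3 ratios are higher in the gld2 libraries than in wt, and in gld2-ccf1 the ratio of drh-3 to ego-1 overlaps wt.

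Both mutator focus genes fell in gld2. The scaffold gene mut-16 had 238, 213 and 197 CPM in wt and 106, 106 and 107 CPM in gld2 (log2 fold change -1.02, SE 0.079, adjusted p = 1.58e-09). The exonuclease gene mut-7 had 255, 287 and 292 CPM in wt and 111, 107 and 112 CPM in gld2 (-1.34, SE 0.089, adjusted p = 1.62e-10). For both genes each wt library was well above each gld2 library. In the double mutants mut-16 had 119.02, 141.5 and 122 CPM with ccf1, from 106 to 111 CPM with ccr4 and from 108 to 127 CPM with parn1. The gene mut-7 ran from 112 to 141.6 CPM with ccf1, from 114 to 139 CPM with ccr4 and from 97.3 to 110 CPM with parn1. Against wt both were lower in every double mutant, from -0.76 to -0.99 for mut-16 and from -1.11 to -1.41 for mut-7 (adjusted p from 1.15e-07 to 6.80e-11).

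The Z granule helicase gene znfx-1 had 519, 495 and 464 CPM in wt and 404, 353 and 404 CPM in gld2. All wt libraries were above those of gld2 (-0.35 on the log2 scale, SE 0.096, adjusted p = 0.00527). With ccf1 and ccr4 it was lower again, at 278, 352 and 291 CPM and at 293, 265 and 321 CPM. The gld2-parn1 libraries, at 381, 383 and 457 CPM, overlapped gld2. The order of means was wt, gld2-parn1, gld2, gld2-ccf1 and gld2-ccr4, and gld2-parn1 and gld2 (adjusted p = 0.697) and gld2-ccf1 and gld2-ccr4 (adjusted p = 0.655) were not told apart. The difference of gld2-parn1 from wt (-0.28, SE 0.096, adjusted p = 0.0224) lost its call without wt replicate 1 or 2 and without gld2-parn1 replicate 1 or 2 (adjusted p from 0.0530 to 0.0899).

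The Argonaute loading gene hrde-2 was the scarcest of the 9, at 38.8, 40.7 and 36.997 CPM in wt and 22.7, 21.6 and 21.5 CPM in gld2 (log2 fold change -0.82, SE 0.10, adjusted p = 1.64e-06). With ccf1 it stood between wt and gld2, at 27.9, 32.4 and 30.4 CPM, and overlapped neither, though its log2 difference from gld2 was -0.065 under somatic scaling. With ccr4 it was the lowest, at 18.2, 16.8 and 16.8 CPM, all below gld2. With parn1 it was 18.5, 23.3 and 21.9 CPM and overlapped gld2. Its annotated exons share 60 bases with nmr-2 on the other strand, a gene at 0.636 CPM in gld2 and 0.0772 CPM in wt.

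The methyltransferase gene henn-1 had 78.0, 83.4 and 85.3 CPM in wt and 118.8, 112 and 123.6 CPM in gld2. Every gld2 library was above every wt library (0.52 on the log2 scale, SE 0.074, adjusted p = 6.59e-06). With ccf1 it was 88.1, 85.1 and 96.3 CPM, below gld2 and overlapping wt, from which it differed by 0.13 on the log2 scale (95% interval -0.037 to 0.29, adjusted p = 0.156). With ccr4 and parn1 it ran from 101 to 115 CPM and from 107 to 123 CPM, both overlapping gld2. Both were higher than wt (0.40 and 0.50, adjusted p = 1.70e-04 and 1.33e-05), but under somatic scaling neither was called and the former turned to -0.0036 (adjusted p = 0.988 and 0.260). The ratio of henn-1 to mut-7, in counts per kb, was 0.568 to 0.598 in wt libraries and 2.05 to 2.16 in those of gld2. It ran from 1.33 to 1.48 with ccf1, from 1.59 to 1.74 with ccr4 and from 2.14 to 2.18 with parn1. Annotated exons of henn-1 share 86 bases with C02F5.14 on the other strand and 10 bases with fbxl-1 on the same strand, which averaged 1.44 and 39.9 CPM in gld2. Whether the counting used the strand is not given in the sources used here.

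Each double mutant was next set against gld2. The 3 comparisons share the gld2 libraries, so their values are given side by side and no overlap between them is read. In gld2-ccf1, 7 of the 9 genes differed from gld2, where 36.5% of tested genes did. The genes drh-3, ekl-1, henn-1 and znfx-1 were lower there, with log2 fold changes of -0.53, -0.39, -0.39 and -0.33 (SE from 0.062 to 0.096, adjusted p from 2.14e-06 to 0.0103). The genes hrde-2, mut-16 and rrf-1 were higher by 0.46, 0.26 and 0.25 (SE 0.10, 0.079 and 0.067, adjusted p from 0.00174 to 0.0126), but under somatic scaling these 3 turned to -0.065, -0.27 and -0.26 without a call. Values of mut-7 and ego-1 were 0.19 and -0.041 (adjusted p = 0.106 and 0.645). Of all tested genes 19.8% were higher and 16.7% lower. The libraries did not overlap for 8 of the 9 genes, and for 47.4% of all tested genes. The median over the 9 genes was -0.041, and 0.0046 over all tested genes.

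With gld2-ccf1 replicate 2 left out, the library richest in ribosomal RNA, mut-16 was no longer called (0.18, adjusted p = 0.0858) and mut-7 was (0.25, adjusted p = 0.0320). The fall of znfx-1 lost its call without gld2-ccf1 replicate 1 (-0.26, adjusted p = 0.0610).

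In gld2-ccr4, 4 of the 9 genes were lower than in gld2 and 0 higher, where 9.23% of tested genes were lower, 11.1% higher and 20.3% either. Libraries did not overlap for 5 of the 9, against 41.4% of tested genes. The 4 lower genes were ekl-1 and znfx-1 (both -0.40, SE 0.062 and 0.096, adjusted p = 1.30e-04 and 0.00590), hrde-2 (-0.34, SE 0.11, adjusted p = 0.0254) and drh-3 (-0.24, SE 0.063, adjusted p = 0.00884). The remaining log2 fold changes were 0.23 for mut-7 (adjusted p = 0.0706), -0.13 for henn-1, 0.028 for mut-16, 0.022 for rrf-1 and -0.027 for ego-1. With TMM scaling their 95% intervals reached at most 0.20 in size for mut-16, rrf-1 and ego-1. Those intervals do not cover the choice of scaling: under somatic scaling mut-16, rrf-1, ego-1 and henn-1 were called lower (-0.59, -0.61, -0.65 and -0.76). The call of hrde-2 was lost with no filter, without gld2 replicate 1 or 2 and without gld2-ccr4 replicate 2 or 3 (adjusted p from 0.0553 to 0.0842). That of mut-7 was gained without gld2-ccf1 replicate 2 or 3 and without gld2-ccr4 replicate 2 (adjusted p from 0.0244 to 0.0425). It was also gained with no filter, the fit of the 6 libraries and without the libraries rich in ribosomal RNA (adjusted p = 0.0300, 0.0244 and 0.0429). Under somatic scaling, however, mut-7 was called lower (-0.40, adjusted p = 0.0266).

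In gld2-parn1 only ekl-1 passed the test against gld2, where 9.79% of tested genes did (4.9% higher and 4.9% lower). Libraries did not overlap for 3 of the 9 genes, and for 34.2% of all tested genes. The log2 fold change of ekl-1 was -0.20 (SE 0.062, adjusted p = 0.0435), and the call was lost with RLE scaling, DESeq2, no filter, the replicate block and with the 4 libraries rich in ribosomal RNA left out (adjusted p between 0.0517 and 0.184). It was also lost without any gld2 library, any gld2-ccr4 library, or gld2-parn1 replicate 1 or 3 (adjusted p from 0.0549 to 0.193). The other 8 genes had log2 fold changes from -0.13 (drh-3) to 0.15 (mut-16), with adjusted p from 0.222 to 0.924.

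**Figure D3:**
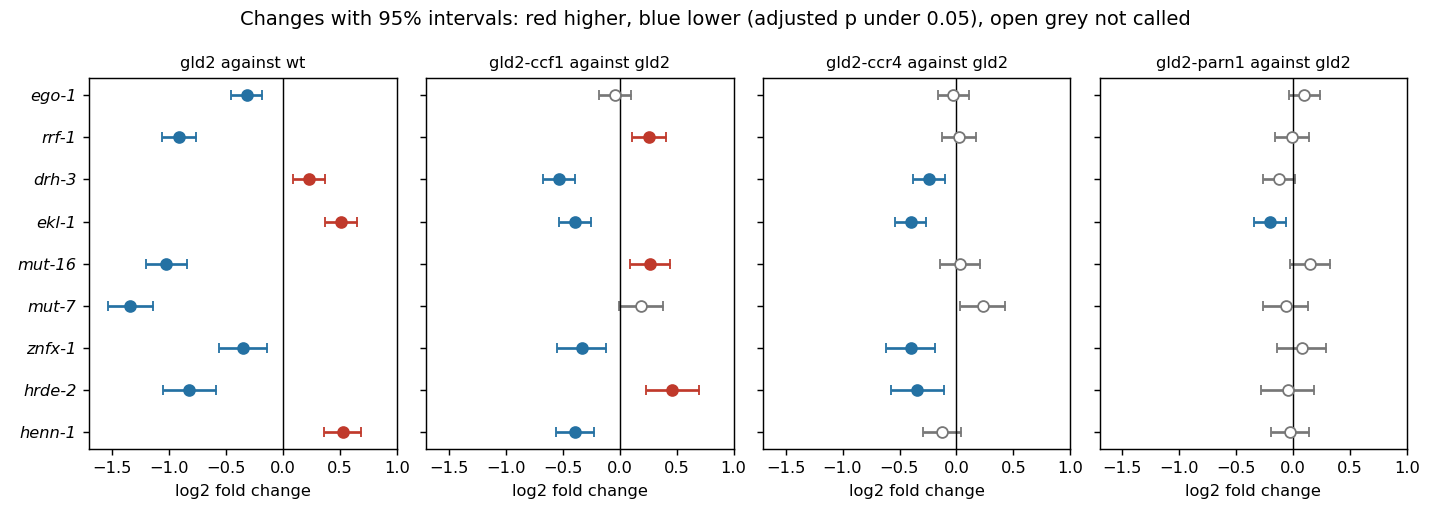
Log2 fold changes of the 9 genes in gld2 against wt and in each double mutant against gld2, with 95% intervals that are not adjusted for the number of genes. Filled red points are higher and filled blue points lower at an adjusted p under 0.05, and open grey points were not called. In gld2 against wt the blue points reach -1.34 (mut-7) and the red points 0.52 (henn-1), and in gld2-parn1 against gld2 only ekl-1 is filled.

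Somatic scaling moved the median of all genes by -0.53, -0.62 and -0.51 on the log2 scale in the ccf1, ccr4 and parn1 double mutants against gld2. Of the 9 genes, 5, 9 and 8 were then called lower and 0 higher. The share of higher genes among all called fell from 54.3% to 11.8%, from 54.6% to 4.80% and from 50% to 3.19%. The markers themselves differed: 8, 9 and 5 of 10 muscle markers and 6, 7 and 5 of 8 intestinal markers rose against gld2. Fewer of the others rose, 4, 2 and 2 of 12 neuron markers and 1, 2 and 3 of 8 tested collagen markers. In gld2-ccf1 1 intestinal and 1 collagen marker fell, and in gld2-ccr4 1 neuron marker fell. With RLE scaling 49% of the called genes were higher in gld2-ccf1 and 57.9% in gld2-parn1, and 0 of the 9 genes were called in gld2-parn1 (DESeq2 also called 0).

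The double mutants were also set against wt. With ccf1, 7 of the 9 genes were lower and 0 higher, where 19.7% of tested genes were lower, 32.1% higher and 51.8% either. With ccr4, 6 were lower and henn-1 higher (but not under somatic scaling), where 20.8% of tested genes were lower, 30% higher and 50.8% either. With parn1, 6 were lower and ekl-1 and henn-1 higher (but neither under somatic scaling), where 21.5% of tested genes were lower, 28.9% higher and 50.4% either. Libraries did not overlap with wt for 7, 8 and 9 of the 9 genes with ccf1, ccr4 and parn1, and for 56.1%, 59.3% and 58.1% of all tested genes. The 6 genes lower in gld2 were lower in each double mutant, and all of these comparisons share the wt libraries. The median over the 9 genes was -0.36, -0.75 and -0.28 with ccf1, ccr4 and parn1, and over all tested genes 0.19, 0.14 and 0.15. Under somatic scaling the medians of the 9 were -0.66, -1.16 and -0.57, and those of all tested genes turned to -0.12, -0.25 and -0.13. Of the genes called against wt, 62% were higher with ccf1, 59.1% with ccr4 and 57.3% with parn1 under TMM scaling, and 45%, 36.4% and 41.5% under somatic scaling. By level, hrde-2 was closest to wt in gld2-ccf1 (-0.36, SE 0.10, adjusted p = 0.00636) and furthest in gld2-ccr4 (-1.17, SE 0.11, adjusted p = 1.54e-08).

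The double mutants were also tested against each other. The gene with the largest difference was hrde-2, higher with ccf1 than with ccr4 by 0.80 (SE 0.11, adjusted p = 2.10e-05) and than with parn1 by 0.51 (SE 0.10, adjusted p = 7.42e-04). In gld2-ccf1 against gld2-ccr4, 5 of the 9 genes were called, with 26% of tested genes (14.4% higher with ccf1 and 11.6% lower). Libraries did not overlap for 5 of the 9, and for 41.3% of tested genes. Besides hrde-2, rrf-1 and mut-16 were higher with ccf1 (0.23 for each) and drh-3 and henn-1 lower (-0.29 and -0.27). Of these 5 only hrde-2 was called in each of the 23 alternatives, while rrf-1 was called in 16 and mut-16 in 14. The call of rrf-1 was lost without gld2-ccf1 replicate 3 or gld2-ccr4 replicate 1 or 2 (adjusted p from 0.0528 to 0.0722), and that of mut-16 without gld2-ccf1 replicate 2 or any gld2-ccr4 library (adjusted p from 0.0553 to 0.189). For henn-1 it was lost without gld2-ccr4 replicate 3 (adjusted p = 0.0704). RLE scaling, DESeq2 and the fit of the 6 libraries also ended the calls of rrf-1 (adjusted p from 0.0594 to 0.0758) and mut-16 (adjusted p from 0.0635 to 0.115), and somatic scaling those of all but hrde-2 (adjusted p from 0.117 to 0.583).

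In gld2-ccf1 against gld2-parn1, 7 of the 9 genes were called, with 37.1% of tested genes (20% higher with ccf1 and 17.2% lower). Libraries did not overlap for 7 of the 9, and for 49.7% of tested genes. The genes hrde-2, rrf-1 and mut-7 were higher with ccf1 (0.51, 0.27 and 0.25), and drh-3, znfx-1, henn-1 and ekl-1 were lower (-0.41, -0.41, -0.37 and -0.19). Without gld2-ccf1 replicate 1 or gld2-parn1 replicate 2 ekl-1 was not called (adjusted p = 0.106 and 0.150). Without gld2-ccf1 replicate 3 or gld2-parn1 replicate 1 or 3 mut-7 was not called (adjusted p from 0.0504 to 0.183), and without gld2-ccf1 replicate 3 ego-1 was (-0.20, adjusted p = 0.0171). The mut-7 call was also lost with RLE scaling, DESeq2, the stricter filter, the fit of the 6 libraries and somatic scaling (adjusted p = 0.129, 0.179, 0.0517, 0.0632 and 0.272). That of ekl-1 was lost with no filter, the fit of the 6 libraries and somatic scaling (adjusted p = 0.0713, 0.0727 and 0.355), and those of rrf-1 and henn-1 with somatic scaling (adjusted p = 0.226 and 0.0690). A call of ego-1 was gained with RLE scaling, DESeq2 and the stricter filter (adjusted p = 0.0201, 0.0198 and 0.0334).

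In gld2-ccr4 against gld2-parn1, 3 were called, with 13.3% of tested genes (7.34% higher with ccr4 and 5.95% lower). The genes znfx-1 and ekl-1 were lower with ccr4 (-0.48 and -0.20) and mut-7 higher (0.30). Libraries did not overlap for 6 of the 9, and for 37.2% of tested genes. The call of ekl-1 was lost without wt replicate 2, gld2 replicate 2, any gld2-ccr4 library, or gld2-parn1 replicate 1 or 2 (adjusted p from 0.0514 to 0.202), and that of mut-7 without gld2-ccr4 replicate 1 or 3 or gld2-parn1 replicate 1 or 3 (adjusted p from 0.0554 to 0.136). The mut-7 call was also lost with RLE scaling, DESeq2 and somatic scaling and without the 4 libraries rich in ribosomal RNA (adjusted p = 0.0532, 0.0590, 0.624 and 0.0593), and that of ekl-1 with no filter and with somatic scaling (adjusted p = 0.111 and 0.214). In this comparison hrde-2 gained a call without gld2-parn1 replicate 1 (-0.38, adjusted p = 0.0410), with the stricter filter and with DESeq2 (adjusted p = 0.0394 and 0.0316), and znfx-1 was called in each of the 23 alternatives.

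A list of 66 other small RNA pathway genes, all of which passed the filter, gave the setting. It includes parn-1, the gene named in the gld2-parn1 label, among the piRNA production and end processing genes. In gld2 against wt 35 of them were lower and 8 higher, where 20.2% of all tested genes were lower and 28.8% higher. The median log2 fold change of the 66 was -0.26, against 0.14 for all tested genes. Under somatic scaling 17 were lower and 11 higher. The 5 falls with the smallest adjusted p were those of the Piwi gene prg-1 (-1.49, SE 0.077), the inheritance Argonaute gene wago-4 (-1.50, SE 0.081), the Argonaute genes wago-1 and ppw-2 (-1.11 and -1.59) and the mutator focus gene mut-15 (-0.98, SE 0.080), with adjusted p from 5.55e-12 to 3.13e-09. The subgroups below stand against the same 20.2% and 28.8%. Among other mutator focus and poly(UG) genes 5 of 8 fell and 0 rose. Of 7 Z granule and inheritance genes 6 fell and 0 rose, and of 12 piRNA production genes 6 fell and 0 rose.

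The 5 rises in gld2 with the smallest adjusted p included alg-4 and alg-3, listed with prg-1 as Argonautes of primary small RNAs. The Argonaute genes alg-4 and alg-3, which act in spermatogenesis, averaged 52.0 ± 12.7 and 38.1 ± 10.5 CPM in gld2 against 0.234 ± 0.237 and 0.197 ± 0.285 CPM in wt. The nuclear RNAi gene nrde-1 rose by 0.61 (SE 0.067), the exonuclease gene eri-1 by 0.52 (SE 0.064) and the RNA transport gene sid-5 by 1.70 (SE 0.22), with adjusted p from 2.63e-07 to 2.47e-06. Of 8 other polymerase, Dicer and ERI genes 3 rose and 2 fell. The rises of drh-3, ekl-1 and henn-1 thus had the direction of the 8 called rises among the 66 listed pathway genes, of which 23 were not called. Among all tested genes 28.8% were called higher.

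**Figure D4:**
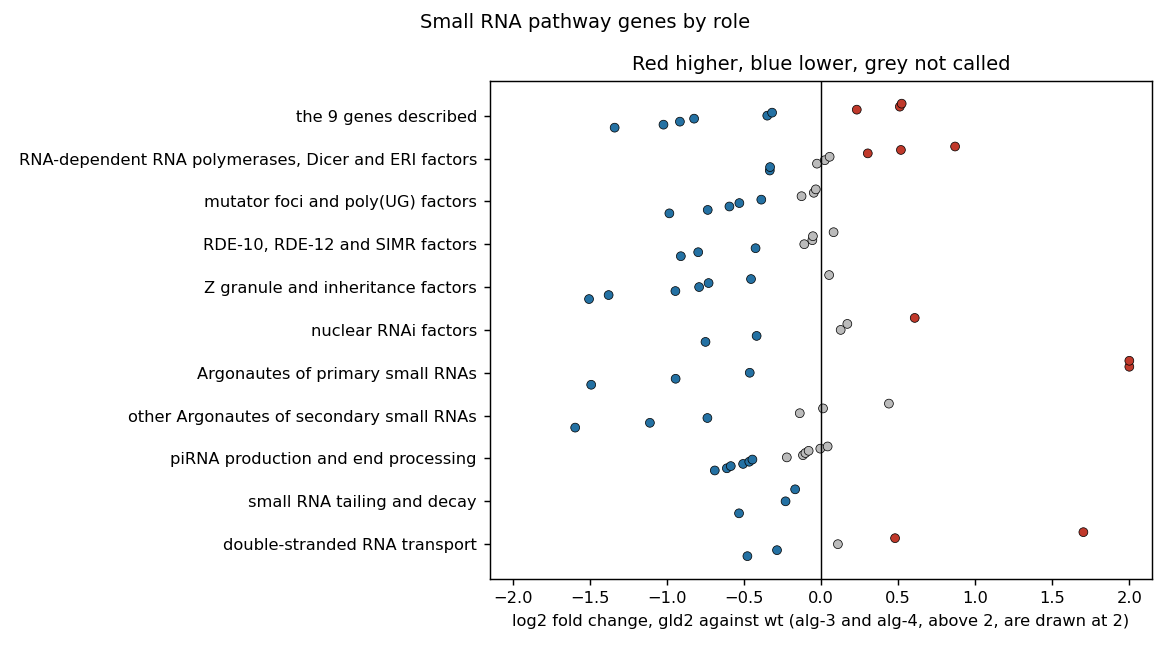
Log2 fold changes in gld2 against wt of the 9 genes and of the 66 other pathway genes, grouped by role, with 1 point per gene. Red points are higher, blue points lower at an adjusted p under 0.05, and grey points were not called; alg-3 and alg-4 lie beyond the axis and are drawn at its end. The Z granule and mutator focus groups hold blue and grey points only, and red points lie in 5 of the 11 groups.

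Against gld2, 19 of the 66 genes were higher and 15 lower with ccf1, where 19.8% of all tested genes were higher and 16.7% lower. With ccr4 the counts were 9 and 12, where the shares of all tested genes were 11.1% and 9.23%. With parn1 they were 5 and 5, where each share was 4.9%. The list gave medians of 0.072, -0.056 and 0.015. Under somatic scaling 2 were higher and 40 lower with ccf1, and 0 higher and 57 and 47 lower with ccr4 and parn1. The genes that rose with the smallest adjusted p in gld2-ccf1 were the RNA transport gene sid-2 (1.86, SE 0.18), prg-1 (0.63, SE 0.076), the Z granule gene pid-4 (0.66), the Argonaute gene sago-2 (1.39) and the endonuclease gene nyn-1 (0.65). Those that fell were rde-4, which encodes a double-stranded RNA binding partner of Dicer (-0.86, SE 0.072), parn-1 (-0.84, SE 0.096), nrde-4 (-0.47), lotr-1 (-0.31) and eri-1 (-0.39). Of the 8 polymerase, Dicer and ERI genes 4 fell and 0 rose in gld2-ccf1, and of 6 secondary Argonaute genes 5 rose and 0 fell, beside 16.7% of all tested genes lower and 19.8% higher.

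In gld2-ccr4 the genes rde-4 (-0.58, SE 0.072), eri-1 (-0.48), dcr-1 for Dicer itself (-0.36), nrde-1 (-0.33) and the helicase gene rde-12 (-0.31) fell. Of the 8 polymerase, Dicer and ERI genes, to which rde-4, eri-1 and dcr-1 belong, 5 were lower and 0 higher, where 9.23% of all tested genes were lower. Of the 9 rises, ppw-2 led with 0.82 (SE 0.094, adjusted p = 8.92e-06), followed by nyn-1, prg-1, mut-15 and tofu-1 from 0.41 to 0.25, of which the last 4 turned negative under somatic scaling. In gld2-parn1 the Argonaute genes ppw-1, wago-4, csr-1 and ppw-2 rose by 0.29 to 0.41 (adjusted p from 0.00246 to 0.0108) but turned negative under the same scaling, and alg-4 rose by 0.82 (SE 0.23, adjusted p = 0.0420). The genes eri-1, eri-5, nrde-1, nyn-2 and nrde-3 fell by 0.24 to 0.46 there. The count in gld2-ccr4 was 11 without gld2 replicate 1, and that in gld2-parn1 was 5 without gld2 replicate 1 or 2 or gld2-parn1 replicate 1 and 6 without gld2-parn1 replicate 3.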

How the data were processed

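The deposited table holds raw read counts per gene, which the authors made as whole numbers for each library. The build is WBcel235 and the tools named are STAR 2.5.2b, DESeq2 1.18.1, Subread 1.4.6-p4 with featureCounts, and FastQC, all per the submitters' processing notes, which give no roles. Per the labels' protocols, ribosomal RNA was depleted with a human, mouse and rat kit and libraries kept the strand. A second deposited table of normalized values was not used. Symbols and positions came from the Ensembl annotation of WBcel235. Genes passing filterByExpr (16888) were fitted with edgeR 4.0.16 (R 4.3.3) by glmQLFit (robust) with TMM factors over all 15 libraries, with 10 residual degrees of freedom. P-values are from glmQLFTest, two-sided, with Benjamini-Hochberg adjustment over all tested genes, and a gene was called under 0.05. SE was taken from the F statistic, and 95% intervals use 10 degrees of freedom. The fit was tested on simulated data in which few genes changed, as many up as down, so that test does not bear on the choice of scaling. The 9 genes, the lists and the tests were chosen with earlier results of these data known. Named genes are the 9 and, per main comparison, the 5 higher and 5 lower pathway genes with the smallest adjusted p, plus the 2 genes most like each of the 9. Somatic scaling is a median ratio over the muscle, intestine, neuron and collagen markers with a count in every library. Alternatives were RLE or somatic scaling, 2 other filters, DESeq2 1.42.0, the 6 libraries compared, a replicate block and libraries left out.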

Additional observations from a re-analysis of the deposited data

How the results depend on the processing

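Each of 90 differences (9 genes in 10 comparisons) was refitted under 23 alternatives, and outside somatic scaling none reversed; between 83 and 90 of the 90 kept their side of the threshold. Under somatic scaling 58 did so, 14 lost and 14 gained a call, and 4 called values changed sign: rrf-1 (-0.26), mut-16 (-0.27) and hrde-2 (-0.065) in gld2-ccf1 against gld2 and henn-1 (-0.0036) in gld2-ccr4 against wt. Pathway genes that changed sign under it were nyn-1 (-0.22), prg-1 (-0.31), mut-15 (-0.31) and tofu-1 (-0.38) in gld2-ccr4 against gld2, and ppw-1 (-0.13), wago-4 (-0.10), csr-1 (-0.23) and ppw-2 (-0.11) in gld2-parn1 against gld2. Of the 9 genes, somatic scaling called 9 in place of 4 in gld2-ccr4 against gld2, 8 in place of 1 in gld2-parn1 against gld2, 1 in place of 5 in gld2-ccf1 against gld2-ccr4, 3 in place of 7 in gld2-ccf1 against gld2-parn1 and 1 in place of 3 in gld2-ccr4 against gld2-parn1. Of the 66 pathway genes it called 28 in place of 43 in gld2 against wt, 57 in place of 21 in gld2-ccr4 and 47 in place of 10 in gld2-parn1 against gld2. RLE scaling, no filter, DESeq2, the replicate block and leaving out the libraries above 4% nuclear ribosomal RNA called 0 of the 9 in gld2-parn1 against gld2. RLE scaling, DESeq2 and the fit of the 6 libraries called 3 in gld2-ccf1 against gld2-ccr4. The cause was not tested.

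Leaving out 1 library gave 9 to 9 calls in gld2 against wt. Against gld2 it gave 6 to 7 with ccf1, 3 to 5 with ccr4 and 0 to 1 with parn1. Against wt it gave 7 to 7, 7 to 7 and 7 to 8. Between double mutants it gave 3 to 5 (ccf1 and ccr4), 6 to 7 (ccf1 and parn1) and 1 to 3 (ccr4 and parn1). For the pathway genes it gave 40 to 44, 29 to 37, 11 to 25 and 5 to 11 in the 4 main comparisons. Replicate numbers are repeated across genotypes. Over all tested genes, libraries with the same number showed correlations of deviations from -0.097 to 0.092 over 30 pairs. The labels do not say whether the number marks a shared day or batch, and correlations over all genes together cannot settle it. With the replicate block ekl-1 in gld2-parn1 against gld2 (adjusted p = 0.0517, 0 of 9 genes called) was the only one of the 90 to change its call. Intervals cover these libraries only, and 3 libraries a genotype limit the precision.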

Other observations

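Of the 9 genes, 5 lie on chromosome I (16.3% of tested genes do): ekl-1 (WBGene00009052, 7095486 to 7098400), rrf-1 (WBGene00004508, 7643431 to 7649777), ego-1 (WBGene00001214, 7650341 to 7656338), drh-3 (WBGene00008400, 7820831 to 7826378) and mut-16 (WBGene00003508, 10080159 to 10085765), in WBcel235. The gene rrf-1, which fell in gld2, and drh-3, which rose, are both on that chromosome, as is the knocked-out gld-2, 709291 bases from ekl-1. The others are znfx-1 on II (WBGene00014208, 9213658 to 9223153), henn-1 (WBGene00015349, 8232651 to 8234611) and mut-7 (WBGene00003504, 9539031 to 9542380) on III, and hrde-2 on V (WBGene00011324, 15005100 to 15006400). Neighbours on chromosome I were mixed. The left neighbour of drh-3, D2005.7, fell by 0.75 in gld2. Its right neighbour glna-3, 63 bases away on the other strand, rose by 2.71 (26.4 against 3.997 CPM). Beside ekl-1, mut-16 and rrf-1, the genes prpf-4 (0.37), scpl-1 (-1.02) and ncbp-2 (-0.20) had the direction of the gene they adjoin. The adjacent rrf-1 and ego-1 both fell. Beside ego-1, F26A3.4 rose (0.56), while B0379.1 beside mut-16 and F22D6.8 beside ekl-1 were not called. Downstream of henn-1, C02F5.5 averaged 6.91 CPM in gld2 against 0.0742 CPM in wt. The part of these neighbours in the values of drh-3 and henn-1 was not tested.

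The mutator focus gene mut-15 ends 32 bases before hrde-2 on the same strand. Both fell in gld2 (-0.98 and -0.82) and both were higher in gld2-ccf1 than in gld2 with TMM scaling (0.51 and 0.46), values smaller in size than the -0.53 by which somatic scaling moved the median of all genes. In gld2-ccr4 against gld2 they went apart with TMM scaling, with mut-15 at 0.32 (adjusted p = 0.00777) and hrde-2 at -0.34 (adjusted p = 0.0254). The hrde-2 call was lost in 5 of 23 alternatives, and under somatic scaling both genes were negative. The ratio of mut-15 to hrde-2, in counts per kb within a library, ran from 1.81 to 2.003 in gld2-ccr4, above all other libraries. It ran from 1.29 to 1.42 in wt, from 1.13 to 1.25 in gld2, from 1.10 to 1.34 in gld2-ccf1 and from 1.24 to 1.60 in gld2-parn1. This pair was chosen after its values were seen.

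The genes most like each of the 9 were sought among 8656 genes by Pearson's r of log2 CPM over the 15 libraries, which form 5 genotypes of 3, so r mostly compares 5 genotype levels and carries no p. The closest were capg-2 and vrp-1 to rrf-1 (0.985 and 0.984), Y18D10A.11 and gfat-2 to mut-16 (0.989 and 0.987), ZC308.4 and htp-2 to mut-7 (0.984 and 0.983), hcf-1 and hira-1 to drh-3 (0.981 and 0.979), leo-1 and tex-2 to ekl-1 (0.974 and 0.966), and panl-2 and tbc-3 to hrde-2 (0.9746 and 0.972). For henn-1 they were Y82E9BR.18 and chdh-1 (0.965 and 0.956), for znfx-1 nfx-1 and cdh-3 (0.956 and 0.946), and for ego-1 rpn-10 and npp-15 (0.942 and 0.937). None of the 9 was among the 2 closest to another of the 9.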
